A study of Mus musculus with 50 samples.

Results

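The TAM receptors Axl, Mertk and Tyro3 and their ligands Gas6 and Pros1 were followed by RNA-seq in microglia sorted by flow cytometry from mouse brains. The 5 genes were chosen as the named family members, each matched to 1 identifier among the 48526 genes of the count table, and they were read in 50 libraries of 14 groups. All mice carried loxP sites in both copies of Hdac1 and Hdac2, which encode class I histone deacetylases. Constitutive knockouts also carried CX3CR1-Cre and were untreated; they were sampled at P0 (3 libraries), at 2 weeks (14 days, 2 libraries) and at 6 weeks (45 days, 3 libraries), each beside 4 untreated Cre-negative controls. In the inducible model the knockouts had CX3CR1-CreERT2 instead, and both genotypes came from dams given 3 mg tamoxifen, with progesterone, on embryonic day 13. Knockout and control libraries numbered 3 and 4 on embryonic day 16 (E16), 4 and 3 at P0, and 4 and 4 at each of 2 weeks and 6 weeks. Both Cre forms are driven by Cx3cr1, which microglia share with other myeloid cells. Since the controls lacked Cre, the deletion and the carrying of Cre cannot be told apart.

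TAM receptors are receptor tyrosine kinases of phagocytes and some neural cells. Their ligands GAS6 and protein S (from Pros1) are vitamin K dependent proteins that hold phosphatidylserine on dying cells with one end and the receptor with the other, so that a phagocyte can take up the cell and damp its own inflammatory signalling. AXL is bound by GAS6, whereas MERTK and TYRO3 are bound by both ligands. MERTK is the main family member of resting microglia, AXL is known to be raised in activated microglia and by interferon, and TYRO3 is best known in neurons.

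Library totals ran from 11050277 to 29651179 counts. Hdac2 was lower in every knockout than in every control library in constitutive mice at 6 weeks and in inducible mice at P0, 2 weeks and 6 weeks. At a targeted gene some knockout libraries lay above or within the controls, against their label, although the deleted exons are not named in the labels. The libraries labelled constitutive knockout 68 (P0) and 380 (6 weeks) held Hdac1 at 35.7 and 92.2 CPM (the count scaled to the library total), against 11.4 to 16.6 CPM in the controls of those ages. The library labelled constitutive knockout 89 (2 weeks) held Hdac2 at 70.1 CPM, within the controls at 59.8 to 71.3 CPM. The library labelled E16 knockout 1 held it at 316 CPM, against 133 to 165 CPM. In constitutive mice at P0 Hdac2 stood at 191, 137 and 124 CPM in knockouts 68, 76 and 73, against 126 to 164 CPM in controls. Only knockout 73 lay below those controls, and narrowly. Inducible knockout 6 at 6 weeks held Hdac1 at 13.5 CPM, within the controls at 12.8 to 18.9 CPM. The sorted cells carried all 10 microglia markers in every group, but their summed level at P0 was 1018 to 3902 CPM in constitutive knockouts and 21303 to 24657 CPM in controls. Neutrophil markers summed to 7216 to 11000 CPM in those knockouts and 616 to 1521 CPM in controls. In bulk libraries fewer cells of a type and less RNA per cell cannot be told apart.

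The genes lie on GRCm38 chromosomes 7 (Axl, 25757273 to 25788705, minus strand), 2 (Mertk, 128698956 to 128802894, and Tyro3, 119797733 to 119818104, both plus strand), 8 (Gas6, 13465374 to 13494490, minus strand) and 16 (Pros1, 62854307 to 62929346, plus strand). Their exons cover 5033, 4336, 6198, 2548 and 4088 bases in the order just given. Of the Gas6 exon bases, 34 overlap Tmem255b on the other strand, and the library kit does not mark strand. Axl was called higher and Mertk lower in constitutive knockouts at 2 weeks and in inducible knockouts at P0, and the 250 bases before their starts are shown so that the upstream sequences can be set side by side (RefSeq, GRCm38.p6, each 5′ to 3′ on the gene's strand). Capitals mark GGGCGG, the GC box read by Sp family factors, or its reverse complement.
Axl, chr7:25788734-25788983, minus strand: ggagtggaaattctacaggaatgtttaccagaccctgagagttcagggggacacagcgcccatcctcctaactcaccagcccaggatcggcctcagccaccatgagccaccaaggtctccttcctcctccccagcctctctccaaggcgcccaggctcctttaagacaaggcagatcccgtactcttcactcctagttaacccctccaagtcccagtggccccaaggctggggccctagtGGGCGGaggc
Mertk, chr2:128698665-128698914, plus strand: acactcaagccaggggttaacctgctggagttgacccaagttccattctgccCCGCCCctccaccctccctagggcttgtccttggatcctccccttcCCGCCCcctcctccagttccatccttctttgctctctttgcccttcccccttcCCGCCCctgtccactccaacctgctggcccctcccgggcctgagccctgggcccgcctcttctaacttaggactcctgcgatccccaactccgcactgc
The Axl sequence held 1 GC box and the Mertk sequence 3, and Tyro3, Gas6 and Pros1 held 3, 4 and 5 in the same window, counted on both strands with overlaps allowed. A GC box stood in 32.7% of the 32851 promoters of this length. The letters of an AP-1 site (TGANTCA, in 6.75% of promoters) and of an ETS site as read by PU.1 (GAGGAAGT, 2.44%) were in none of the 5 windows. The windows were 54.8% (Gas6) to 73.2% (Tyro3) G or C, with a median of 52.4% over all promoters.

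Per kilobase of exon, which allows genes to be compared, Gas6 was the highest of the 5 at E16 and P0 in both genotypes and models, and Tyro3 the lowest in all 14 groups. Control libraries at 6 weeks held Mertk at a mean of 288 CPM per kilobase in the constitutive line and 279 in the inducible line, Pros1 at 229 and 255, Gas6 at 78.3 and 65.5, and Axl at 3.13 and 3.60. Axl was thus the scarcer of the 2 receptors with appreciable RNA in adult control microglia. Constitutive knockouts departed from that order: Axl stood at 96.6 CPM per kilobase at 2 weeks, above Pros1 (90.4) and Mertk (84.3), and at 103.5 at 6 weeks, below Mertk (234) and Pros1 (127) and above Gas6 (77.5).

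**Figure D1:**
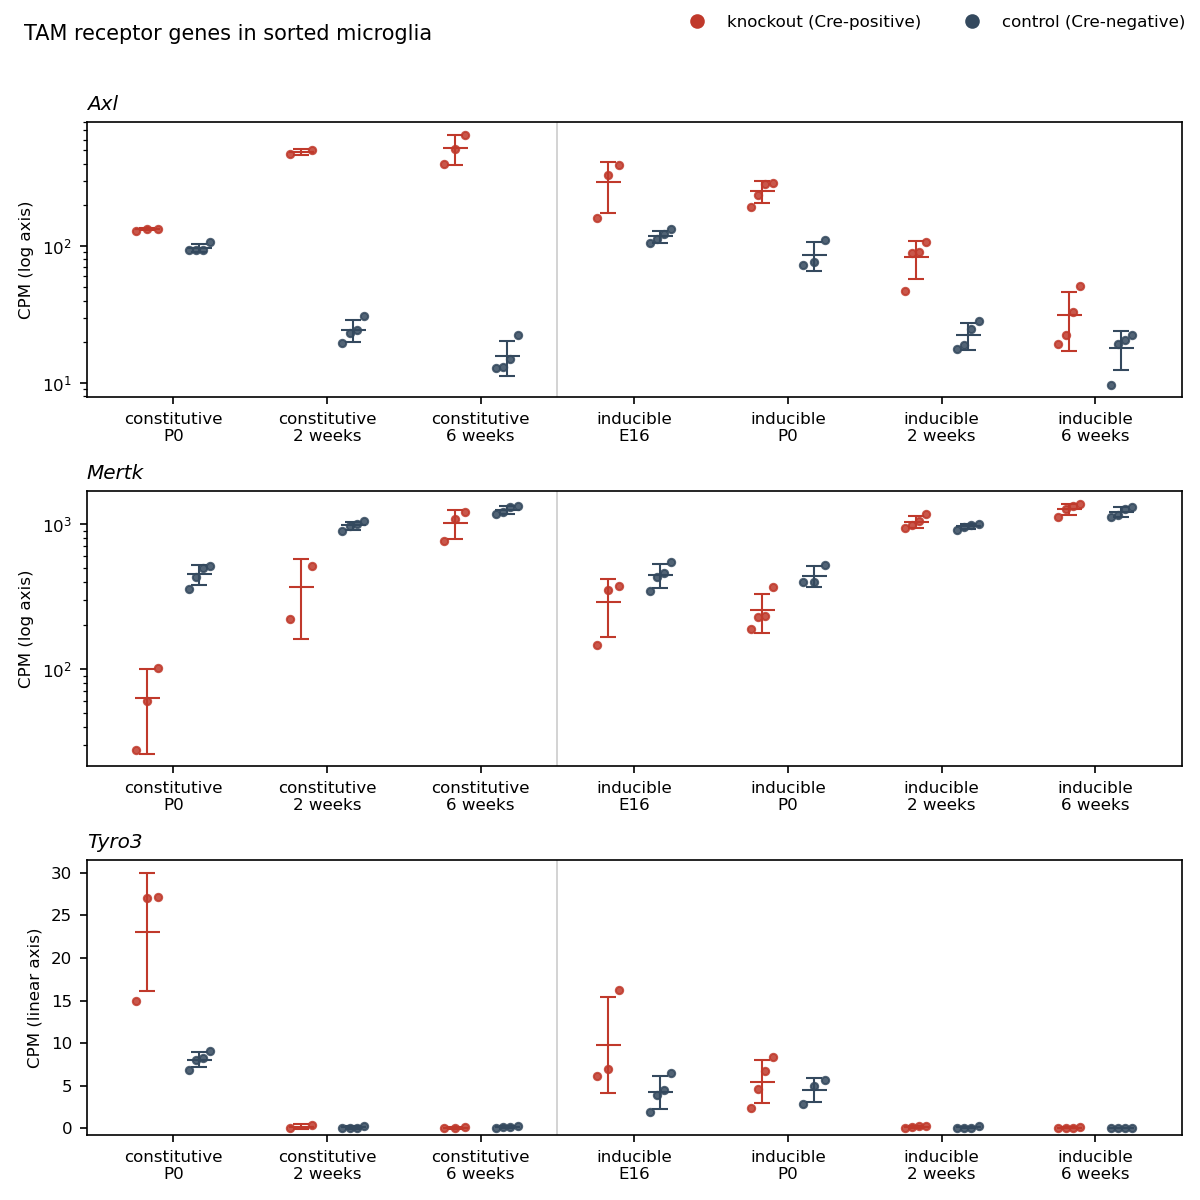
Level of Axl, Mertk and Tyro3 in CPM in each library (points), with the group mean and SD (bars), knockouts left of controls for each model and age. Axl and Mertk are on log axes and Tyro3 on a linear axis; Axl knockout libraries lie above all controls in 6 of the 7 pairs, and Tyro3 is at or below 0.40 CPM in all groups at 2 and 6 weeks.

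Axl, the receptor kinase bound by GAS6, was higher in knockouts in 4 of the 7 comparisons and lower in none. In constitutive knockouts at 2 weeks it stood at 504 and 468 CPM, the lower value in the library labelled 89, against 30.6, 24.3, 23.4 and 19.6 CPM in controls. Every knockout library was far above every control. The fitted log2 change was 4.31 ± 0.16 (SE, 19.9-fold, edgeR quasi-likelihood test with Benjamini-Hochberg adjustment over all genes, adjusted p = 2.8e-07). Of the 4 members tested at this age 3 were called, Axl higher and Mertk and Pros1 lower, while 42.1% of all 15017 genes tested were called, 24.4% higher and 17.8% lower. At 6 weeks Axl reached 653, 515 and 395 CPM in constitutive knockouts, the highest in the library labelled 380, against 22.3, 14.9, 13.02 and 12.8 CPM in controls. The groups did not overlap, and the log2 change was 5.00 ± 0.24 (32.1-fold, adjusted p = 1.8e-06). Here 2 of 4 members tested were called, Axl higher and Pros1 lower, against a background of 12% of 14428 genes, 6.76% higher and 5.24% lower. Without the libraries labelled 89 and 380 the log2 changes were 4.27 and 4.81, and both remained called.

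In constitutive knockouts at P0 Axl was 134, 134 and 130 CPM, against 107, 94.4, 93.9 and 93.7 CPM in controls. The knockout libraries lay above all controls in CPM, yet after TMM scaling (trimmed mean of M values, which sets library sizes by the bulk of the genes) the log2 change was 0.08 ± 0.12 and was not called (adjusted p = 0.58). With library totals alone it was 0.45 and called (adjusted p = 0.0049), on a scale where the median of all genes stood at 0.40 instead of 0.04. The other 4 members were all called at this age, Tyro3 higher and Mertk, Gas6 and Pros1 lower, where 41.6% of 18411 genes tested were called, 21.4% higher and 20.2% lower.

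In inducible knockouts Axl was called higher at P0 and at 2 weeks. At E16 it was 390, 329 and 161 CPM, the lowest in the library labelled knockout 1, against 132, 122, 113 and 105 CPM in controls. The groups did not overlap, but the log2 change of 1.24 ± 0.32 was not called (edgeR, adjusted p = 0.18), as no gene of 17594 was at this age (0.0%). At an unadjusted p under 0.05 the same fit held 2306 genes, 1 member among them (Axl), and DESeq2 called 881 genes. DESeq2 called Axl (log2 change 1.22, adjusted p = 0.02), and so did the edgeR test without the library labelled knockout 1 (1.58, adjusted p = 0.0021); that library also held 12151 CPM of erythroid markers and 2531 CPM of neuron markers, against 929 and 489 CPM at most in the other knockouts.

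At P0 Axl was 290, 285, 236 and 193 CPM in inducible knockouts, against 110, 76.6 and 72.5 CPM in controls. All knockouts lay above all controls, with a log2 change of 1.55 ± 0.19 (2.93-fold, edgeR, adjusted p = 8.9e-04). Axl and Mertk were the 2 of 5 members called, Axl higher and Mertk lower, and 10.4% of 17573 genes were called, 6.81% higher and 3.56% lower. At 2 weeks Axl was 107, 90.7, 89.6 and 47.1 CPM in inducible knockouts and 28.2, 24.9, 18.8 and 17.7 CPM in controls. The groups again did not overlap, and the log2 change was 1.82 ± 0.24 (3.52-fold, adjusted p = 0.0055). Axl was the 1 of 4 members tested that was called at this age, where 2.25% of 13921 genes were, 1.11% higher and 1.13% lower. By 6 weeks the inducible knockouts held 51.2, 33.1, 22.5 and 19.3 CPM, overlapping the controls at 22.6, 20.8, 19.3 and 9.75 CPM. The log2 change of 0.76 ± 0.32 was not called (edgeR, adjusted p = 1.0), and neither was any other of the 4 members tested, with 0.0633% of 14217 genes called, 0.0492% higher and 0.0141% lower; Axl was the 1 member at an unadjusted p under 0.05, and DESeq2 called 44 genes and no member.

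Border macrophage markers, a list of 9 genes including Mrc1, Pf4 and Lyve1, moved with Axl in some comparisons and not in others. They summed to 2626 to 2838 CPM in constitutive knockouts at 2 weeks, against 121 to 176 CPM in controls, and the 6-week sums were 1063 to 1704 CPM, against 35.2 to 71.8 CPM; 8 of 9 tested markers rose at 2 weeks and 5 of 8 at 6 weeks. Within that list, Lyve1 averaged 17.4 CPM in constitutive knockouts at 2 weeks and 0.3 CPM at 6 weeks, and Cd209f was at 0 counts in the 6-week knockouts. In inducible mice at 2 weeks the list summed to 148 to 368 CPM in knockouts and 85.1 to 129 CPM in controls, with the lowest sum and the lowest Axl both in knockout 6. At P0 the sums overlapped in inducible mice, 8572 to 15435 CPM in knockouts and 3072 to 12542 CPM in controls, where Axl did not. Neutrophil markers summed to 17670 to 50229 CPM in the constitutive knockouts at 2 weeks (controls 108 to 812 CPM), and the 6-week knockouts held 2156 to 4811 CPM of them (controls 395 to 672 CPM). Monocyte markers came to 1586 to 3462 CPM in the constitutive knockouts at 2 weeks (controls 17.8 to 65.4 CPM), where all 8 rose, and the 6-week knockouts held 197 to 763 CPM of them (controls 47.4 to 109 CPM), where 3 of 8 rose. All 3 lymphocyte markers tested at 2 weeks and the 1 tested at 6 weeks rose as well. The part of these markers in the Axl levels was not tested.

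Mertk, the receptor that leads in resting microglia, was lower in knockouts in 3 of the 7 comparisons and higher in none. In constitutive knockouts at P0 it was 101, 60.6 and 27.5 CPM, the highest in the library labelled 68, against 512, 497, 428 and 358 CPM in controls. The groups lay far apart, with a log2 change of -3.18 ± 0.38 (9.07-fold lower, edgeR, adjusted p = 1.0e-04). At 2 weeks the constitutive knockouts held 511 CPM and, in the library labelled 89, 220.3 CPM, against 1041, 991, 973 and 895 CPM in controls. Both knockouts were below all controls (log2 change -1.46 ± 0.26, adjusted p = 0.0025), and without the library labelled 89 the change was -1.03 and still called. At 6 weeks the knockout libraries at 1203, 1076 and 767 CPM, the lowest in the library labelled 380, overlapped the controls at 1328, 1297, 1199 and 1172 CPM. The log2 change of -0.35 ± 0.15 was not called (edgeR, adjusted p = 0.19). Without the library labelled 380 it was -0.18 (edgeR, adjusted p = 0.49).

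Inducible knockouts at P0 held Mertk at 365, 232, 229 and 190 CPM, against 520, 398.2 and 397 CPM in controls. No knockout reached a control, but the call was narrow (log2 change -0.76 ± 0.22, edgeR, adjusted p = 0.046) and was lost without any one of knockouts 48, 49 and 53 or controls 54, 55 and 56, with adjusted p up to 0.12. At E16 the knockouts held 375.7, 352 and 146 CPM, the lowest in the library labelled knockout 1, and the controls 545, 455, 430 and 342 CPM, which overlapped (-0.68 ± 0.37, adjusted p = 0.49). At 2 and 6 weeks the inducible knockouts averaged 1032 ± 102 and 1268 ± 113 CPM (SD, n = 4 each), against 963 ± 38.1 and 1210 ± 94.2 CPM in controls (n = 4 each). The log2 changes there, 0.03 ± 0.10 and 0.04 ± 0.11, were smaller than their errors.

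Microglia markers fell beside Mertk. In constitutive knockouts all 10 of the list fell at P0, 9 at 2 weeks and 4 at 6 weeks, and the knockout library with the most Mertk at each of these ages also had the highest microglia sum of its group, 3902, 23909 and 47394 CPM. In inducible knockouts 6 of 10 fell at P0, where the sums were 9431 to 13058 CPM in knockouts and 21427 to 23118 CPM in controls. The part of these markers in the Mertk levels was not tested.

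Tyro3, the family member best known in neurons, was measurable only at E16 and P0. In constitutive knockouts at P0 it was 27.1, 27.0 and 15.0 CPM, against 9.09, 8.24, 8.003 and 6.87 CPM in controls. All knockouts were above all controls, and the log2 change was 1.15 ± 0.24 (2.23-fold, edgeR, adjusted p = 0.0031). The same libraries held neuron markers at 2212 to 2780 CPM, against 633 to 1355 CPM in controls; all 11 of that list rose, by a median log2 change of 1.15, and all 8 astrocyte markers rose by a median of 1.29. One fit over all 14 groups did not call Tyro3 (adjusted p = 0.074). At E16 it was 16.3, 7.01 and 6.13 CPM in knockouts, the highest in the library labelled knockout 1, and 6.53, 4.54, 3.89 and 1.86 CPM in controls (log2 change 1.07 ± 0.48, adjusted p = 0.40). In inducible mice at P0 the knockouts held 8.32, 6.66, 4.56 and 2.39 CPM and the controls 5.70, 4.90 and 2.86 CPM, which overlapped (0.31 ± 0.41, adjusted p = 0.67). At 2 and 6 weeks a library held 0 to 7 Tyro3 counts, too few to test, and the 4 inducible controls at 6 weeks held none. A count of 0 in one of those 4 libraries allows up to 0.110 to 0.214 CPM (3 counts of its total, counting error only), so expression below that level was not detectable at this depth. The part of neuronal RNA in the Tyro3 levels was not tested.

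**Figure D2:**
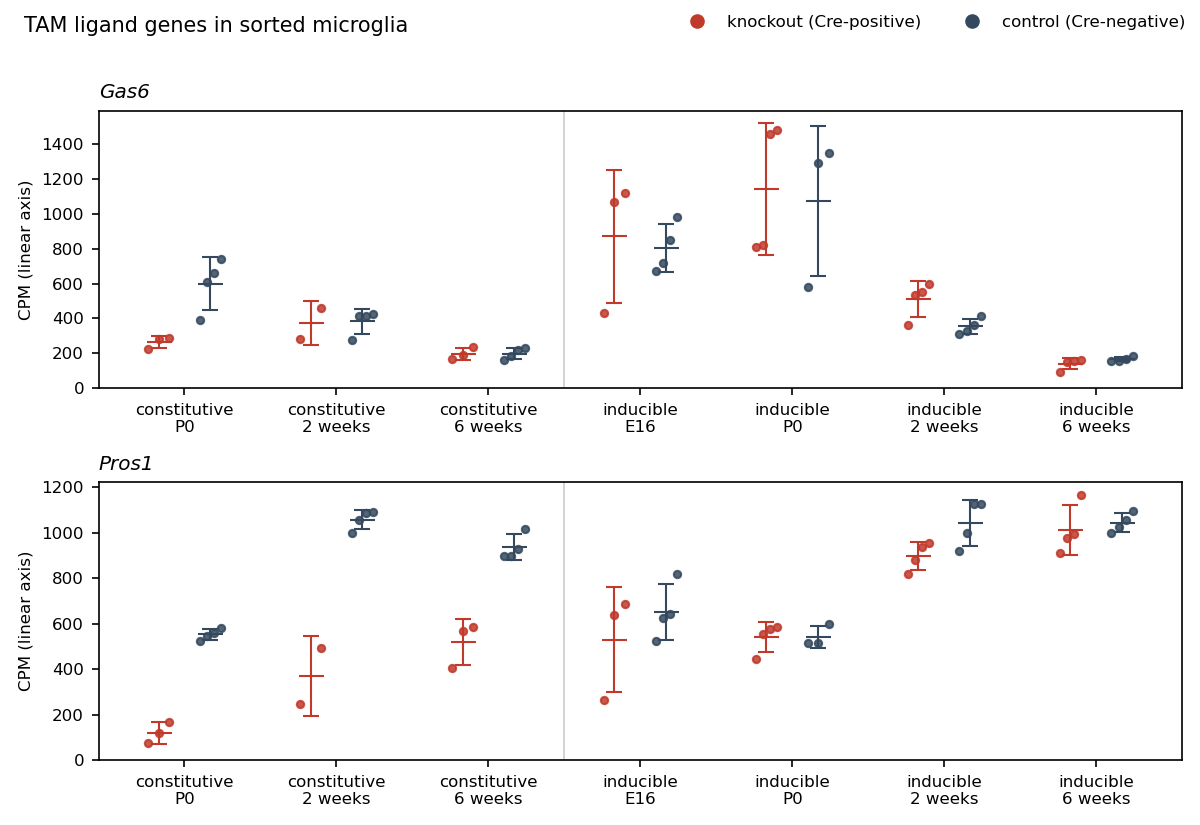
Level of Gas6 and Pros1 in CPM in each library (points, linear axes), with the group mean and SD (bars), knockouts left of controls for each model and age. Pros1 knockout libraries lie below all controls at the 3 constitutive ages and overlap them at the 4 inducible ages, and Gas6 in inducible mice at P0 spreads from 578 to 1476 CPM.

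Pros1, which encodes protein S, a plasma anticoagulant that also bridges dying cells to MERTK and TYRO3, was lower in constitutive knockouts at every age. At P0 it was 168, 117 and 72.8 CPM in knockouts, against 580, 560, 547 and 524 CPM in controls. The groups were well apart (log2 change -2.56 ± 0.26, 5.91-fold lower, edgeR, adjusted p = 3.9e-05). At 2 weeks the knockouts held 493 CPM and, in the library labelled 89, 247 CPM, against 1089.8, 1087, 1053 and 998 CPM in controls (-1.55 ± 0.21, adjusted p = 3.8e-04). At 6 weeks the knockouts held 585, 568 and 403 CPM, the lowest in the library labelled 380, against 1017, 928, 898 and 897 CPM in controls (-0.90 ± 0.14, adjusted p = 0.0016). No knockout library reached a control at these ages, and without the libraries labelled 68, 89 and 380 the log2 changes at their ages were -2.90, -1.20 and -0.74, each still called. The microglia marker sums given for Mertk apply here too, and their part was not tested.

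In inducible mice Pros1 was not called at any age. From E16 to 6 weeks the log2 changes were -0.37 ± 0.38, 0.00 ± 0.15, -0.28 ± 0.10 and -0.07 ± 0.11. Knockouts averaged 540 ± 65.2 CPM at P0 (SD, n = 4), against 541 ± 48.03 CPM in controls (n = 3), and the libraries of the 2 genotypes overlapped at each of the 4 ages. At 2 weeks the change passed in 1 of the alternatives tried, when knockout 6 was left out (-0.34, adjusted p = 0.046).

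Gas6, the ligand shared by all receptors of the family, was called lower in constitutive knockouts at P0 and not at the later ages. At P0 it was 291, 284 and 226 CPM in knockouts, against 742, 661, 608 and 389 CPM in controls. Every knockout was below every control (log2 change -1.53 ± 0.23, 2.89-fold lower, edgeR, adjusted p = 4.5e-04). In the same comparison all 10 microglia markers fell, by a median log2 change of -3.71, and 7 of 9 border macrophage markers fell, by a median of -1.12 over the list, although the border macrophage sums overlapped (2091 to 3387 CPM in knockouts and 2079 to 3083 CPM in controls). The part of these markers in the Gas6 levels was not tested. At 2 weeks it was 462 CPM and, in the library labelled 89, 285 CPM in knockouts, and 426, 415, 414 and 279 CPM in controls (-0.06 ± 0.19). At 6 weeks it was 235, 189 and 168 CPM in knockouts and 230.3, 220.3, 186 and 162 CPM in controls (-0.06 ± 0.15). The groups overlapped at both later ages.

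Gas6 was not called in inducible knockouts. At E16 they held 1115, 1067 and 433 CPM, the lowest in the library labelled knockout 1, and the controls 978, 849, 719.6 and 669.9 CPM (log2 change 0.05 ± 0.37). At P0 the libraries of both genotypes split: knockouts held 1476, 1458, 819 and 810.5 CPM, and controls 1347, 1288 and 578 CPM (0.08 ± 0.33). The control with 578 CPM also had the lowest border macrophage sum, 3072 CPM, against 12506 and 12542 CPM in the other controls. Among knockouts these sums ran from 8572 to 15435 CPM, and a library with 819 CPM of Gas6 had a sum of 14952 CPM. What part border macrophage RNA had in this split was not tested. At 2 weeks Gas6 was 597, 554, 533 and 364 CPM in knockouts and 413, 365, 329.7 and 312 CPM in controls. The change of 0.45 ± 0.12 missed the threshold (edgeR, adjusted p = 0.072), and it passed with DESeq2 (adjusted p = 0.015), with no filter on low counts (adjusted p = 1.7e-04), without knockout 6 (0.57, adjusted p = 0.0019) and without control 4 (0.55). At 6 weeks the knockouts held 163, 159, 151 and 94.1 CPM and the controls 183, 169, 158 and 158 CPM (-0.26 ± 0.15, adjusted p = 1.0).

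**Figure D3:**
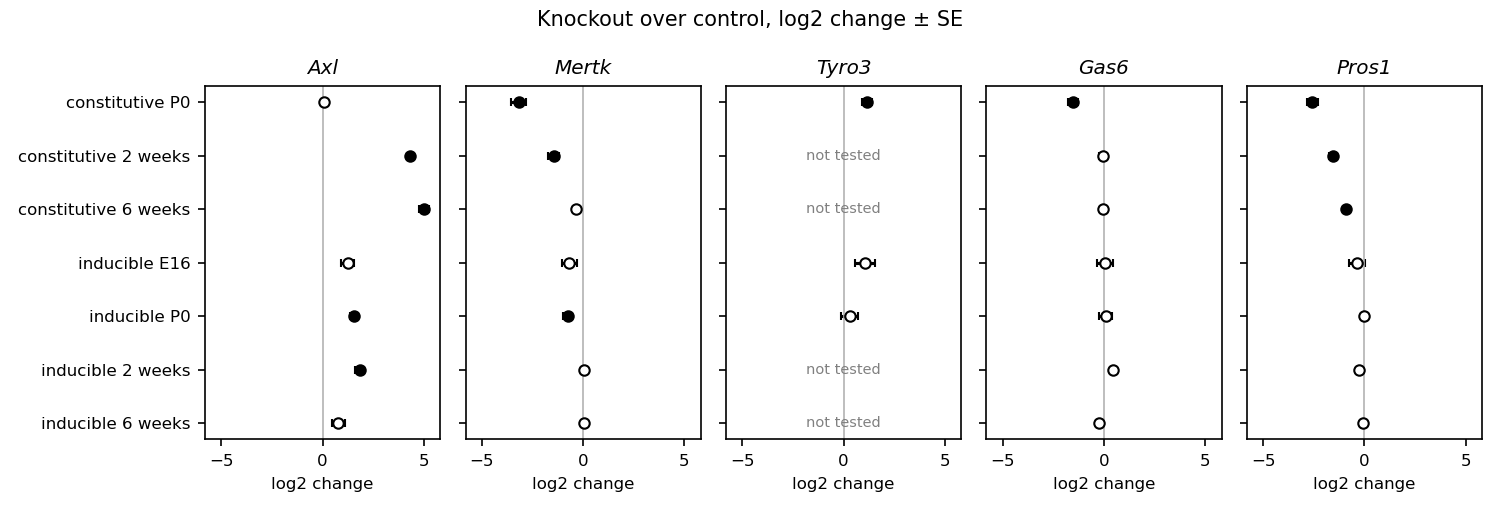
Log2 change, knockout over control, of each member in the 7 comparisons (points, with SE bars); filled points passed an adjusted p of 0.05 and open points did not. Axl reaches 4.31 and 5.00 in constitutive mice at 2 and 6 weeks, while Mertk and Pros1 are most negative in constitutive mice at P0, at -3.18 and -2.56.

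The knockout effects in the 2 models were set against each other at the 3 shared ages, as the constitutive minus the inducible log2 change. Axl responded less in constitutive mice at P0 (difference -1.43 ± 0.22, edgeR, adjusted p = 4.1e-04) and more at 2 weeks (2.49 ± 0.32, adjusted p = 4.7e-05) and 6 weeks (4.25 ± 0.47, adjusted p = 5.8e-05). For Pros1 the difference was -2.53 ± 0.31, -1.27 ± 0.22 and -0.81 ± 0.18 at these ages, each called. For Mertk it was -2.37 ± 0.46 and -1.50 ± 0.25 at P0 and 2 weeks, both called, and -0.37 ± 0.18 at 6 weeks, not called. Gas6 differed at P0 (-1.58 ± 0.43, adjusted p = 0.012), but not with the filter on low counts taken away or without constitutive knockout 73. In all, 4 of 5 members were called at P0, 3 of 4 at 2 weeks and 2 of 4 at 6 weeks, where 30.9%, 31.2% and 4.95% of all genes tested were. The models also differ in tamoxifen exposure and in when Cre acts, which cannot be told apart here. Their knockout libraries differed in content too. At P0 microglia markers summed to 1018 to 3902 CPM in constitutive and 9431 to 13058 CPM in inducible knockouts. Neutrophil markers came to 7216 to 11000 and 1174 to 5682 CPM, and border macrophage markers to 2091 to 3387 and 8572 to 15435 CPM. At 2 weeks microglia markers came to 15678 to 23909 and 46969 to 56101 CPM. Border macrophage markers held 2626 to 2838 and 148 to 368 CPM, and neutrophil markers 17670 to 50229 and 135 to 335 CPM. At 6 weeks microglia markers came to 33762 to 47394 and 50461 to 55762 CPM. Border macrophage markers came to 1063 to 1704 and 28.4 to 71.2 CPM, and neutrophil sums overlapped. Hdac2 was 124 to 191 CPM in constitutive P0 knockouts (controls 126 to 164) and 48.9 to 73.9 CPM in inducible ones (controls 132 to 145). The part of these in the differences was not tested.

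Between neighbouring ages, the constitutive knockout effect on Axl was larger at 2 weeks than at P0 by 4.16 ± 0.19 on the log2 scale (edgeR, adjusted p = 2.4e-09). The effects on Gas6 (1.41 ± 0.32), Mertk (1.66 ± 0.51) and Pros1 (0.95 ± 0.34, adjusted p = 0.046) were less negative at 2 weeks, so that 4 of 5 members were called, with 30.8% of all genes. Of these, the Pros1 difference was lost in 15 of 18 alternatives and the Mertk difference in 4. In constitutive knockouts at P0 the median log2 change was -3.71 for microglia markers and -1.12 for border macrophage markers. At 2 weeks these medians were -1.61 and 3.79, and at 6 weeks -0.50 and 3.31. The part of these markers in the differences between ages was not tested. From 2 to 6 weeks the effect on Mertk became less negative by 1.10 ± 0.30 (adjusted p = 0.024), the 1 call among 4 members tested, against 15.8% of all genes. It was lost in 3 of 18 alternatives, among them leaving out the library labelled 89 or the 6-week knockout with the most Mertk. In inducible mice the Mertk effect at 2 weeks exceeded that at P0 by 0.86 ± 0.23 (edgeR, adjusted p = 0.043). It was the 1 call among 5 members tested, against 4.38% of genes, and was lost in 14 of 20 alternatives. The median log2 change of microglia markers in inducible knockouts was -0.83 at P0 and -0.17 at 2 weeks, and its part was not tested. No gene was called between E16 and P0 (0.0% of 18916) or between 2 and 6 weeks (0.0% of 15043) in inducible mice; edgeR held 983 and 1029 genes at an unadjusted p under 0.05 and DESeq2 called 2 and 6.

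Within a library, Axl was also read as a share of the summed RNA of the 3 receptors (per kilobase). The measure was chosen after the levels were seen and was not tested. Axl higher and Mertk lower were called together only in constitutive knockouts at 2 weeks and inducible knockouts at P0. Of these 2 receptors, Mertk alone was called in constitutive knockouts at P0. Axl alone was called in constitutive knockouts at 6 weeks and inducible knockouts at 2 weeks. In constitutive mice Axl made up 60.4% ± 11.2 (SD, n = 3) of receptor RNA in knockouts at P0, against 15.8% ± 2.41 in controls (n = 4). At 2 weeks it made up 46.0% and 64.7% in the 2 knockouts, the lower share in the library with more Mertk, against 1.59% to 2.64% in controls. At 6 weeks it made up 22.0% to 42.3% in knockouts, against 0.826% to 1.57% in controls. In inducible mice the share was 46.0% ± 1.52 in E16 knockouts (n = 3), against 18.8% ± 2.55 in controls (n = 4), and 46.1% ± 4.62 in P0 knockouts (n = 4), against 14.3% ± 0.957 in controls (n = 3). It then came to 3.35% to 8.95% in knockouts at 2 weeks, against 1.52% to 2.38% in controls, and 1.25% to 3.10% at 6 weeks, against 0.634% to 1.59%, where the groups overlapped. The 3 E16 knockouts differed in their Axl level, from 161 to 390 CPM, but held nearly the same share, 44.2% to 46.9%. Gas6 as a share of ligand RNA was 78.8%, 62.5% and 38.0% in constitutive knockouts at P0, 2 weeks and 6 weeks, against 62.8%, 36.6% and 25.5% in controls; in inducible mice it was 72.6%, 76.2%, 47.5% and 18.5% in knockouts from E16 to 6 weeks, against 66.3%, 74.3%, 35.3% and 20.4% in controls.

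**Figure D4:**
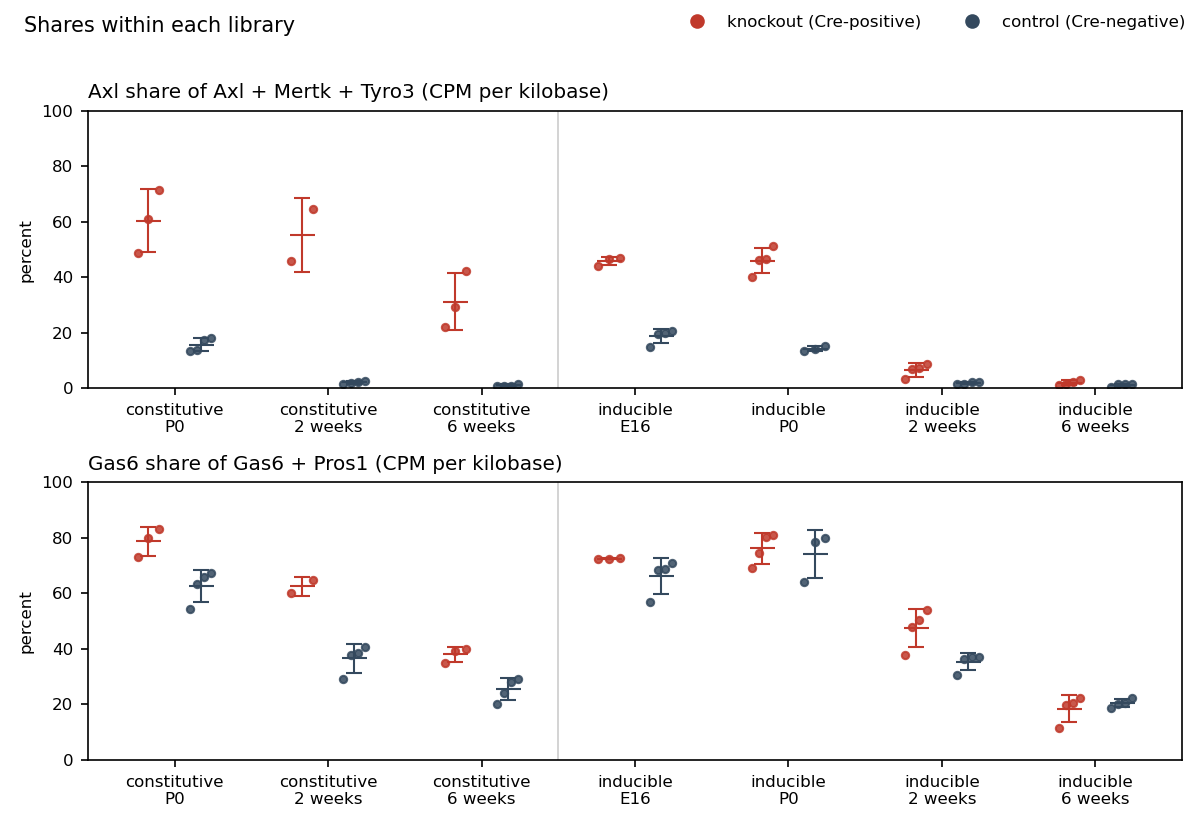
Share of Axl in the summed level of Axl, Mertk and Tyro3 (above) and of Gas6 in the sum of Gas6 and Pros1 (below), in percent of CPM per kilobase in each library (points), with the group mean and SD (bars), knockouts left of controls. The Axl share lies between 22.0% and 71.3% in the constitutive knockouts and between 0.826% and 18.2% in their controls.

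In the controls, which show the family in mice without Cre, microglia held less Axl and Tyro3 RNA and more Mertk and Pros1 at 2 weeks than at P0. Axl at 2 weeks was 24.5 ± 4.58 CPM, against 97.2 ± 6.48 CPM at P0 in untreated controls (SD, n = 4 each; log2 change -1.70 ± 0.13, edgeR, adjusted p = 8.3e-08), and 22.4 ± 4.98 CPM (n = 4) against 86.5 ± 20.8 CPM (n = 3) in tamoxifen-exposed controls (-1.73 ± 0.19). Mertk rose by 1.41 ± 0.13 and 1.35 ± 0.12 in the untreated and the tamoxifen-exposed controls, and Pros1 by 1.23 ± 0.09 and 1.16 ± 0.12. Microglia markers rose over the same step, 10 of 10 in untreated and 9 of 10 in exposed controls, by median log2 changes of 1.54 and 1.87. The part of the microglia markers in the Mertk and Pros1 changes was not tested. Tyro3 had log2 changes of -6.27 ± 0.61 and -5.44 ± 0.69, down to 5 and 6 counts in all over the 4 libraries of a group, beside neuron markers that came to 3.46 to 4.14 CPM at 2 weeks, against 633 to 1355 CPM at P0, in untreated controls. Gas6 fell in tamoxifen-exposed controls (-1.38 ± 0.26, adjusted p = 0.0017) and was not called in untreated ones (-0.37 ± 0.20, adjusted p = 0.12), where DESeq2, library totals alone and the fit without control 70 did call it. Thus 4 and 5 of 5 members were called, with 63.3% and 54.7% of all genes called in these comparisons. All 9 border macrophage markers fell in both lines. They summed to 121 to 176 CPM at 2 weeks, against 2079 to 3083 CPM at P0, in untreated controls. In tamoxifen-exposed controls they came to 85.1 to 129 CPM at 2 weeks, against 3072 to 12542 CPM at P0. The part of border macrophage markers in the changes of the members was not tested.

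From 2 to 6 weeks Gas6 fell again in the controls, to 199.5 ± 31.6 CPM at 6 weeks against 383 ± 69.8 CPM at 2 weeks in untreated mice (n = 4 each; -0.97 ± 0.13, edgeR, adjusted p = 1.6e-04) and to 167 ± 11.7 CPM against 355 ± 44.5 CPM in tamoxifen-exposed mice (-1.16 ± 0.10, adjusted p = 2.3e-06). Mertk rose by 0.32 ± 0.09 and 0.26 ± 0.08, and Axl fell in untreated controls alone (-0.67 ± 0.19, adjusted p = 0.024), making 3 and 2 of 4 members called against 17.7% and 17.1% of genes. The Axl and both Mertk calls at this step were lost in 3 to 9 of 13 alternatives. Between E16 and P0 none of the 5 members was called in tamoxifen-exposed controls, where 0.058% of 17251 genes were; Axl alone was at an unadjusted p under 0.05 (-0.44 ± 0.15), and DESeq2 called 412 genes.

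Tamoxifen-exposed were set against untreated Cre-negative controls to see what the inducible setting itself carried; exposure and breeding line cannot be told apart. No member was called at P0, 2 weeks or 6 weeks, where 4.18%, 1.78% and 0.22% of genes were. At an unadjusted p under 0.05 stood Tyro3 at P0 (-0.72 ± 0.30), Gas6 at P0 (0.97 ± 0.30) and Gas6 at 6 weeks (-0.27 ± 0.11). Gas6 at P0 was at 1347, 1288 and 578 CPM in exposed and 742, 661, 608 and 389 CPM in untreated controls, with an edgeR adjusted p of 0.082. DESeq2 called it (adjusted p = 0.014), as did edgeR without exposed control 56 (1.28, adjusted p = 0.012). Border macrophage markers summed to 3072 to 12542 CPM in exposed and 2079 to 3083 CPM in untreated controls at P0. The lowest exposed sum was in the control with 578 CPM of Gas6. The part of these markers in the Gas6 difference was not tested.

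Counts over the pathway lists are to be read against the share of all genes called, 41.6%, 42.1% and 12% in constitutive knockouts at P0, 2 weeks and 6 weeks, and 0.0%, 10.4%, 2.25% and 0.0633% in inducible knockouts from E16 to 6 weeks. The shifts in microglia, neutrophil, monocyte and border macrophage markers given above belong to the same comparisons, and their part in these lists was not tested. Among other receptors and bridging proteins for dying cells, genes changed in both directions in constitutive knockouts. Of 19 tested genes of that list at P0, 6 rose and 11 fell, with a median log2 change of -1.11 beside 0.04 over all genes. Anxa1, a bridging protein that is also abundant in neutrophils, rose to 568 CPM in knockouts against 74.9 CPM in controls (2.57 ± 0.23, edgeR, adjusted p = 2.4e-05), and C1qb, a chain of complement C1q, fell to 1337 CPM against 5532 CPM (-2.40 ± 0.22). At 2 weeks 6 of 17 rose and 7 fell, and the scavenger receptor gene Cd36 was at 191 CPM in knockouts and 1.48 CPM in controls (7.02 ± 0.40, adjusted p = 1.7e-05). At 6 weeks 3 of 16 rose and 1 fell: Cd36 was again higher (3.26 ± 0.41), and Itgb3, a subunit of the vitronectin receptor that takes up bridged cells, was lower (-1.69 ± 0.15, adjusted p = 2.5e-05). In inducible knockouts 3 of 18 fell at P0, among them Itgb3 (-1.60 ± 0.25) and the lipid receptor gene Trem2, at 187 CPM in knockouts and 608 CPM in controls (-1.68 ± 0.23). At 2 weeks 1 of 16 rose, Lrp1 (0.45 ± 0.11), an endocytic receptor, and 2 fell, Itgb3 included (-0.74 ± 0.12).

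Genes that finish the ligands or shed the receptors, the vitamin K cycle and the proteases Adam10 and Adam17, were lower or not called in constitutive knockouts. Of the 5 tested, 3 fell at P0, 2 at 2 weeks and 0 at 6 weeks, and none rose, where 20.2%, 17.8% and 5.24% of all genes were called lower. Microglia markers fell in the same comparisons, 10 of 10 at P0 and 9 of 10 at 2 weeks. Adam17, which encodes a sheddase that cuts MERTK, fell by 1.79 ± 0.19 at P0 and 0.81 ± 0.11 at 2 weeks, and Adam10, a sheddase of AXL, by 1.38 ± 0.15 and 0.86 ± 0.12 (edgeR, adjusted p = 4.5e-04 or less for each). In inducible knockouts 1 of 5 rose at P0, Vkorc1l1 (1.01 ± 0.18, adjusted p = 0.0068), a relative of the vitamin K epoxide reductase gene.

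Of 18 engulfment signalling genes at P0 in constitutive knockouts, 4 rose and 12 fell, such as Vav1 (-2.01 ± 0.20), a guanine exchange factor of blood cells. At 2 weeks 2 of 17 rose and 4 fell, near the share of 42.1% called over all genes. At 6 weeks 1 of 17 rose and 3 fell. In inducible knockouts none of the 16 to 18 tested was called at any age. Among the cytokine feedback partners, which include the interferon receptor genes Ifnar1 and Ifnar2 through which TAM receptors act, 5 of 7 fell and none rose at P0. Ifnar2 was 74.4 CPM in constitutive knockouts and 137 CPM in controls at P0 (-1.24 ± 0.13), but it rose at 2 weeks (0.78 ± 0.11) and 6 weeks (0.56 ± 0.10), together with Ifnar1, at 364 CPM in knockouts and 176 CPM in controls at 2 weeks (1.04 ± 0.11) and 370.1 and 172 CPM at 6 weeks (1.06 ± 0.14, adjusted p = 3.9e-04). At those ages 3 of 7 and 2 of 7 rose and 1 and 0 fell, and in inducible knockouts none of 7 was called. Of the 10 nuclear receptor and lipid efflux genes, which handle the cholesterol of engulfed cells, 7 fell and none rose at P0, Abca1 (-2.27 ± 0.21) and Abcg1 (-2.05 ± 0.22) among them; 3 rose and 3 fell at 2 weeks and 1 fell at 6 weeks. Abca1 also fell in inducible knockouts at P0, to 983 CPM against 1677 CPM in controls (-0.77 ± 0.17), the 1 call among 10 of that list, and at 2 weeks 1 of 9 fell, Abcg2 (-0.53 ± 0.10). In the E16 and 6-week inducible knockouts no gene of the 5 lists was called.

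Across the 14 group means, on a log2 scale of CPM plus 1, Mertk and Pros1 ran together (Pearson r = 0.91), Axl ran against both (-0.54 with Mertk and -0.61 with Pros1), and Mertk ran against Tyro3 (-0.88); these are descriptions over points that share libraries, age and genotype. Among 12851 genes compared, those most like Mertk included Gpr34, a lysophospholipid receptor gene (0.993), and Entpd1, an ectonucleotidase gene (0.993). Those most like Axl were Xylt2 (0.957), a xylosyltransferase gene, Trps1 (0.938), a transcriptional repressor gene, and Spic (0.933), an ETS factor gene of red pulp macrophages. Tyro3 was most like Mmp17 (0.998), Bex1 (0.997) and Efna3 (0.997). Its group means at 2 and 6 weeks were 0.0 to 0.20 CPM. The r values of Tyro3, that with Mertk included, thus rest largely on E16 and P0 set against the later ages. Gas6 was most like Washc2 (0.971), Tbc1d4 (0.965) and Clta (0.963), and Pros1 like Crat (0.977), Cerk (0.976) and Mef2c (0.974).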

How the data were processed

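Per the submitters' processing notes, CASAVA 1.8.2, STAR 2.5.2b, featureCounts 1.5.1 of Subread and limma 3.28.21 were used with GRCm38 (annotation release not given in the sources used here). RNA, per the labels, was amplified with a SMARTer kit and tagmented with Nextera XT. The deposited count table holds whole reads per gene, and the deposited CPM table equals each count over its library total, which was checked; a deposited log2 table was not used here. Of 48526 identifiers 48058 matched a GENCODE vM21 symbol, and the 468 others held 0.058% of counts.

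Each of 23 comparisons was fitted on its own groups over all genes in R 4.3.3 with edgeR 4.0.16 (filterByExpr, TMM, robust quasi-likelihood fit, Benjamini-Hochberg adjustment, threshold 0.05), and the script was tested on simulated data. SE was taken as the size of the change divided by the root of the F statistic. Alternatives were DESeq2 1.42.0, its size factors in edgeR, library totals alone, no filter beyond 1 count, one fit over all 14 groups, and each library left out. Pairs of replicates differed by more than counting error (chi-square per gene 9.98 to 214). Labels name no batch, and animal numbers serve as library names; whether animals shared a litter is not given. The members, the 5 pathway lists and the 10 marker lists were chosen with earlier results of these data known. From each pathway list, up to 2 called genes with the smallest adjusted p were named, and for each member the 3 genes with the highest r among those with at least 5 CPM in a group; one gene that this rule names is not reported here.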

Additional observations from a re-analysis of the deposited data

Results flagged for a closer look

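Of 44 sets of 4 or more libraries tested for a value far from the rest, 2 held one, where chance gives about 1 in 20. Axl in untreated controls at P0 was 107 CPM in control 71, above the other 3 at 93.7 to 94.4 CPM. Gas6 in untreated controls at 2 weeks was 279 CPM in control 81, below the other 3 at 414 to 426 CPM.

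The knockout effect differed between models or ages for members other than Tyro3, by the test of the difference itself (edgeR, log2 scale). As constitutive minus inducible effect, P0 gave -1.43 for Axl, -1.58 for Gas6, -2.37 for Mertk and -2.53 for Pros1, 2 weeks gave 2.49 for Axl, -1.50 for Mertk and -1.27 for Pros1, and 6 weeks gave 4.25 for Axl and -0.81 for Pros1. The sign for Axl at P0 is opposite to that at 2 and 6 weeks. As the 2-week minus the P0 effect in constitutive mice, Axl differed by 4.16, Gas6 by 1.41, Mertk by 1.66 and Pros1 by 0.95. Mertk differed by 1.10 between the 6-week and the 2-week effect in constitutive mice and by 0.86 between the 2-week and the P0 effect in inducible mice. The Axl differences between models and between P0 and 2 weeks in constitutive mice kept their direction and their call in every alternative run.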

How the results depend on the processing

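No value called in either of the fits compared changed direction. Among values called in neither, 69 of 1521 alternative values, on 21 of the 103 results for members, had the other sign; for Gas6 in constitutive knockouts at 2 weeks, for example, the log2 change was 0.17 without the library labelled 89, against -0.06. Of the 103 results, the side of the threshold held in 98 with DESeq2, 102 with its size factors, 99 with library totals alone, 97 with no filter beyond 1 count and 94 in one fit over all 14 groups, and in 946 of 1006 values that left out a library.

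The number of members called moved by more than 1.5 times in these cases. With DESeq2 it moved to 1 at E16, 2 in inducible mice at 2 weeks and 1 for tamoxifen exposure at P0. With no filter it moved to 2 in inducible mice at 2 weeks, 2 for the constitutive effect from P0 to 2 weeks (as with library totals alone), 0 for the inducible effect from P0 to 2 weeks and 1 for exposed controls from 2 to 6 weeks. One fit over all groups gave 1 at E16, 1 for the models at 6 weeks, 0 for the constitutive effect from 2 to 6 weeks, 0 for the inducible effect from P0 to 2 weeks, and 1 for controls from 2 to 6 weeks in either line. The cause was not tested.

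Leaving out each library, the number ran from 4 to 4, 3 to 3 and 2 to 2 in constitutive mice at P0, 2 and 6 weeks, and from 0 to 1, 1 to 2, 1 to 3 and 0 to 0 in inducible mice from E16 to 6 weeks. Between models it ran from 3 to 4, 3 to 4 and 2 to 2. Between ages it ran from 2 to 4 and 0 to 2 for the constitutive effect, and 0 to 0, 0 to 1 and 0 to 0 for the inducible effect. In controls it ran from 4 to 5 and 1 to 4 (untreated), and 0 to 0, 5 to 5 and 1 to 2 (exposed), and for exposure from 0 to 1, 0 to 0 and 0 to 0.

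No paired analysis was possible because animal numbers name different animals and the compared groups share fewer than 2 numbers. Where constitutive 2-week groups lose 1 of 2 knockouts, the other is assumed to vary like the controls. At 2 and 6 weeks Tyro3 had too few counts to test at this depth, and why its counts were so low was not tested. What limits the other members was not tested.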
